A study of Mus musculus with 8 samples.

Results

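The 33 genes described here encode the mitochondrial route by which fatty acids and ketone bodies are burned, together with the nuclear receptors and coactivators that set its transcription. They were taken by symbol from a list drawn up by function with earlier results of these data known. Shares of called genes are therefore given as a description and not as a test. All 33 were found among the 43472 gene symbols of the count files. Neural retinas were taken at 3 weeks of age from 4 Mfp2-/- mice and 4 control mice on a C57BL/6J background, and both retinas of a mouse were pooled into 1 library. Mfp2-/- mice carry a constitutive deletion of Hsd17b4, which encodes the peroxisomal multifunctional protein 2, so every cell of the body lacks it. Of the controls, 3 were Mfp2+/+ and 1 (replicate 2) was Mfp2+/-. No mouse received a treatment. Polyadenylated RNA was measured by QuantSeq, a method that reads a single fragment near the 3' end of each transcript. Counts were therefore not scaled to transcript length. Fold changes compare the groups within a gene, and sums and ratios over several genes are given from the counts as measured. The question put to these genes was whether mitochondrial oxidation changes at the RNA level when peroxisomal oxidation is blocked.

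Long-chain fatty acids are joined to coenzyme A by acyl-CoA synthetases, carried through the mitochondrial membranes as carnitine esters, and shortened in repeated rounds by acyl-CoA dehydrogenases, hydratases, hydroxyacyl dehydrogenases and thiolases. The dehydrogenases hand their electrons to the respiratory chain through the electron transfer flavoprotein, and auxiliary isomerases and a reductase deal with the double bonds of unsaturated chains. Ketone bodies made in the liver are turned back into acetyl-CoA in other tissues. Many of these genes are transcribed under PPAR nuclear receptors and PGC-1 coactivators, and photoreceptors, with their packed mitochondria, are a known site of fatty acid oxidation in the retina. Very long chains are shortened first in peroxisomes, where multifunctional protein 2 catalyses the hydration and dehydrogenation steps, and the shortened products can pass on to mitochondria.

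The deleted gene matched the labels in each library. Hsd17b4 had 1, 0, 1 and 0 counts in Mfp2-/- retinas, against 47, 20, 78 and 37 counts in control retinas, and the 20 counts belonged to the Mfp2+/- mouse. Libraries held 1895485 to 2826553 counts in genes in the Mfp2-/- group and 2340974 to 3226187 counts in the control group, of which the 33 genes took 3236 to 5462 and 4312 to 6564 counts. Mfp2-/- replicates 2 and 3 stood apart from the rest in reads that aligned but met no annotated gene, at 10.8% and 15.7% of all counts. This share was 27.5% and 27.98% in Mfp2-/- replicates 1 and 4 and 22.6% to 29.9% in controls. All counts that named no gene, for any reason, made up 59.4% and 59.2% in Mfp2-/- replicates 2 and 3. They made up 66.9% and 66.8% in Mfp2-/- replicates 1 and 4 and 60.6% to 65.4% in controls. Control replicate 3 was the lowest control in both shares, at 22.6% and 60.6%. Levels below are CPM, a gene's counts scaled to a common library total after TMM factors. Groups were compared by the quasi-likelihood test of edgeR, p values were adjusted by the Benjamini-Hochberg method over the 12516 genes that entered it, the threshold was 0.05, and n = 4 in each group throughout. Across all genes 27.0% passed this test, 13.8% upward in Mfp2-/- retinas and 13.2% downward, and for 30.9% of genes the CPM of the 2 groups did not overlap.

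The pathway did not move as a block. Of the 32 members tested, 12 passed the test, 2 of them higher and 10 lower in Mfp2-/- retinas, which is 37.5% beside the 27.0% of all genes. The 10 that fell included all 4 of the PPAR and PGC-1 genes tested and 6 of the 28 enzymes and carriers, among them the rate-setting carnitine palmitoyltransferase Cpt1a, the very long-chain dehydrogenase Acadvl and both subunits of the trifunctional protein. Acadl and Acsl5 rose. For the enzymes and carriers alone, 8 of 28 passed (28.6%), a share near the 27.0% of all genes, so the higher share over all members came with the regulators. The remaining 20 members did not pass, which included each of the 3 electron transfer flavoprotein genes, 3 auxiliary enzymes and 3 ketone enzymes. Over all tested members the median log2 fold change was -0.033, beside -0.0039 over all genes tested, and it was 0.02 over the 28 enzymes and carriers and -1.63 over the 4 regulators. Groups did not overlap in CPM for 13 of the 32, beside the 30.9% of all genes. The summed level of the members was 1644 to 1883 CPM in Mfp2-/- retinas and 1951 to 2171 CPM in control retinas. By role, sums fell without overlap for the regulators, the carnitine shuttle, the acyl-CoA dehydrogenases and the later enzymes from hydratase to thiolase. Outside the regulators not every gene of these roles fell. Cpt1a averaged 43.4 CPM in Mfp2-/- retinas and 126 CPM in control retinas, while the other shuttle genes did not pass. Among the dehydrogenases Acadl rose, and of the later enzymes only Hadha and Hadhb passed. The acyl-CoA synthetases, the largest part of the sum, overlapped at 697 to 943 CPM in Mfp2-/- and 653 to 816 CPM in control retinas. Sums of the auxiliary, flavoprotein and ketone genes overlapped too. The 10 calls downward did not depend on the scaling, but with upper-quartile factors or total counts alone, which moved the median of all genes to 0.12, 6 members were called upward, the further ones being Cpt1c, Acsl3, Acads and Echs1. Under those scalings 64.2% and 65.2% of all called genes were higher in Mfp2-/- retinas, beside 51.2% with TMM factors.

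**Figure D1:**
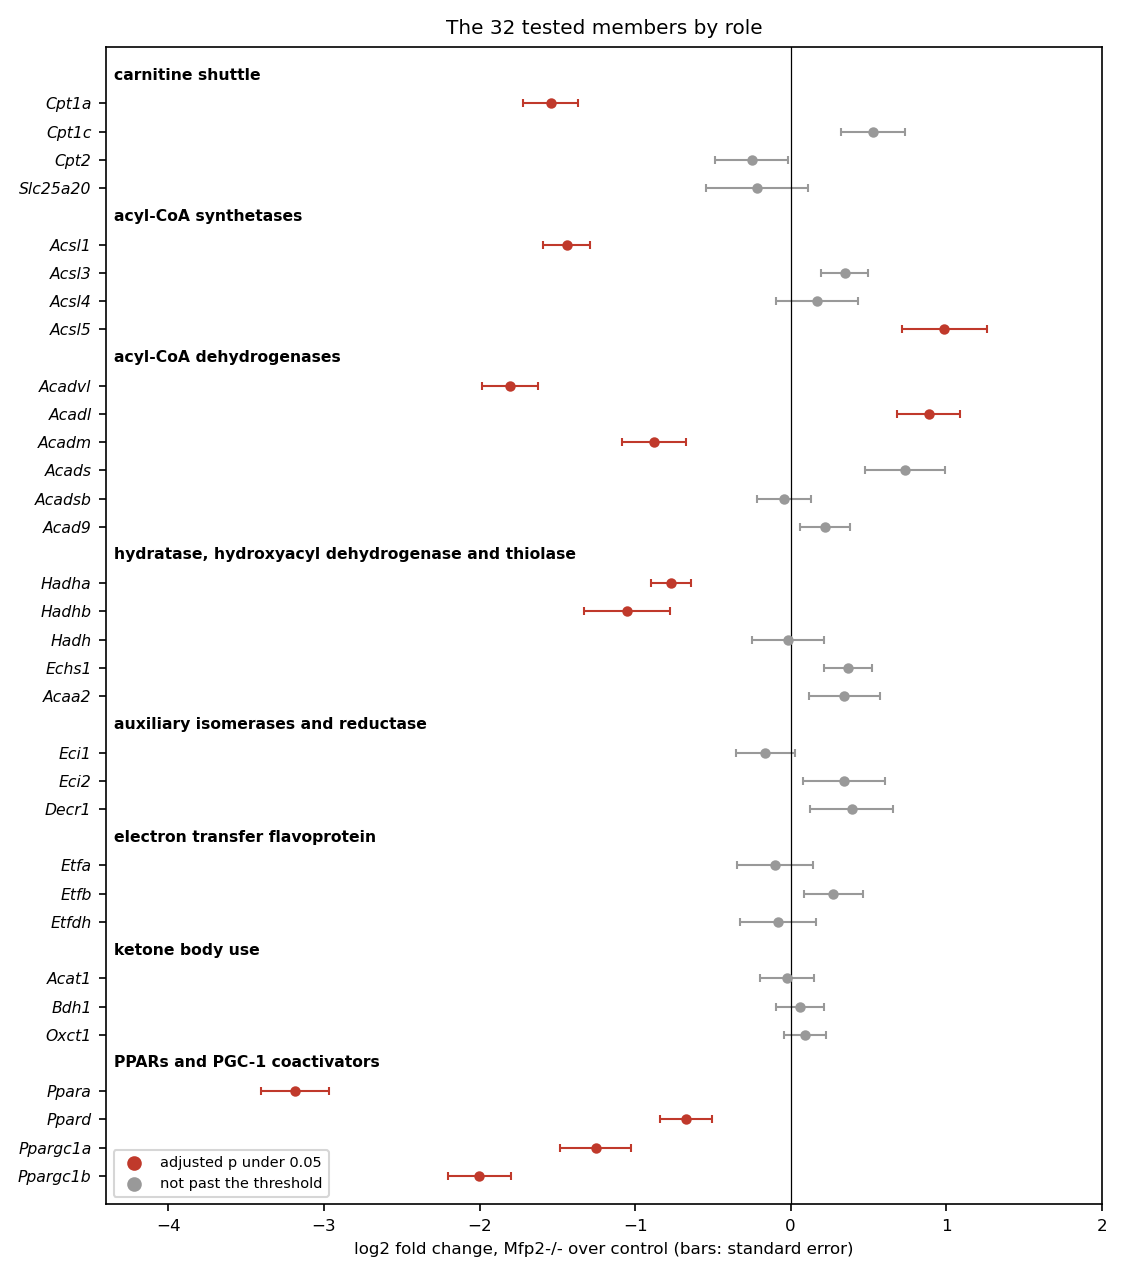
Log2 fold change of Mfp2-/- over control (x axis) with its standard error (bars) for the 32 tested genes, grouped by role (4 libraries a group). Red points passed the test (adjusted p under 0.05) and grey points did not. The 4 regulators at the foot lie between -3.19 and -0.67, while the enzymes lie on both sides of 0, with Acadl and Acsl5 the called points on the right.

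Among the members, the 2 largest changes were those of regulators, Ppara and Ppargc1b. Ppara (chr15:85734983-85802819, plus strand, mm10, GENCODE annotation) encodes PPARα, the fatty acid-activated receptor best known for switching on fatty acid oxidation in liver. It was at 3.54, 3.05, 4.37 and 2.94 CPM in Mfp2-/- retinas, against 25.8, 38.5, 31.6 and 33.8 CPM in control retinas. The highest Mfp2-/- library lay well under the lowest control, and the fitted level was 9.10-fold lower (log2 fold change -3.19, SE 0.22, adjusted p = 2.18e-06). The depth behind this was 10, 6, 13 and 8 counts in Mfp2-/- libraries, against 71, 85, 98 and 97 counts in control libraries.

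Ppargc1b, which encodes the coactivator PGC-1β, was at 43.9, 27.4, 46.4 and 58.8 CPM in Mfp2-/- retinas, against 174, 166, 172 and 199 CPM in control retinas, and fell by 2.00 on the log2 scale (SE 0.20, adjusted p = 4.27e-05). Ppargc1a (chr5:51454250-51567726, minus strand) encodes PGC-1α, the coactivator linked to mitochondrial biogenesis. Its levels were 55.6, 26.4, 32.9 and 53.3 CPM in Mfp2-/- retinas, against 91.7, 109, 88.7 and 115 CPM in control retinas (log2 fold change -1.25, SE 0.23, adjusted p = 0.00245). For both coactivators the groups were separate, and Mfp2-/- replicate 2 was the lowest of its group. Ppard (chr17:28232700-28301474, plus strand) encodes PPARδ, the broadly expressed receptor of the family. It was at 11.7, 14.7, 13.1 and 11.4 CPM in Mfp2-/- retinas, against 21.5, 18.5, 21.0 and 19.9 CPM in control retinas, a smaller but non-overlapping difference (log2 fold change -0.67, SE 0.17, adjusted p = 0.0137). Pparg, the adipocyte receptor PPARγ, had 0 counts in all 8 libraries and was not tested. The summed CPM of the regulators was 71.6 to 126 in Mfp2-/- retinas and 313 to 367 in control retinas.

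The sequence around the starts of 3 of these receptors and coactivators is shown (RefSeq, GRCm38.p6, 250 bases before to 50 bases after the annotated start, read 5′ to 3′ on the gene's strand). Whether it bears on their levels was not tested. In the windows of Ppara (chr15:85735526-85735825, plus strand) and Ppargc1a (chr5:51567676-51567975, minus strand) capitals mark CpG pairs, and in that of Ppard (chr17:28232504-28232803, plus strand) they mark the letters GGATTA, which read TAATCC on the other strand, the core bound by the photoreceptor factor CRX.
Ppara: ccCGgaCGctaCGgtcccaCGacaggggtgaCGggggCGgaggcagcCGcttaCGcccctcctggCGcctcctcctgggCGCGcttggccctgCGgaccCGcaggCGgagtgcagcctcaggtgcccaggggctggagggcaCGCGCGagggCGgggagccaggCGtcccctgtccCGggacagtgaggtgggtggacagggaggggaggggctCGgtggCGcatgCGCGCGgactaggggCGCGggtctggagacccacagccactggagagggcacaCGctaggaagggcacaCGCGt
Ppargc1a: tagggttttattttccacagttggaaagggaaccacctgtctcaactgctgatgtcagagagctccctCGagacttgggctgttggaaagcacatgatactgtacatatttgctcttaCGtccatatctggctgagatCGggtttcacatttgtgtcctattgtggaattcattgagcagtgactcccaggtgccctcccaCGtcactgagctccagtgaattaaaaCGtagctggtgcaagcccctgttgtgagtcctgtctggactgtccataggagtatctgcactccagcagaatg
Ppard: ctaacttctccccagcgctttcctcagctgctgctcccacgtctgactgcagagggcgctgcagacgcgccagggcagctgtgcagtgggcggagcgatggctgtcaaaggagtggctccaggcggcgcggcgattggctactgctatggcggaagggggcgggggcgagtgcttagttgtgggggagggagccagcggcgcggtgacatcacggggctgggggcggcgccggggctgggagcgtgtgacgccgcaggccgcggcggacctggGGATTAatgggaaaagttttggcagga
The Ppara window was 74.7% GC with 30 CpG pairs, while that of Ppargc1a was 48.7% GC with 5. Over the 32 windows of the 28 members with a RefSeq entry the median was 61.8% GC and 17 CpG pairs, against 52.7% and 7 over all 32851 windows. Windows of Ppargc1b, Acat1, Acaa2, Decr1 and Acad9 were not used here. Motifs were searched on both strands. The CRX core TAATCC occurred in the windows of 3 of the 28 members, Eci1, Etfb and Ppard, and in those of 8.14% of all genes with a window. Eci1 and Etfb did not pass the test, and whether CRX acts on Ppard was not tested. The element of estrogen-related receptors, TCA followed directly by AGGTCA, occurred in 0 of the 28 members, which says only that these letters were not in these windows, and in 0.466% of genes. A PPAR-type direct repeat (DR1: AGGTCA, any base, AGGTCA, with up to 2 mismatches in all) occurred in 3 of the 28 members and in 4.40% of genes. The 3 were Echs1, Etfa and Slc25a20, none of which passed the test. Sites outside these windows were not searched for any of the motifs. The AGGTCA letters are shared between the last 2 motifs, so a stretch can count for both.

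**Figure D2:**
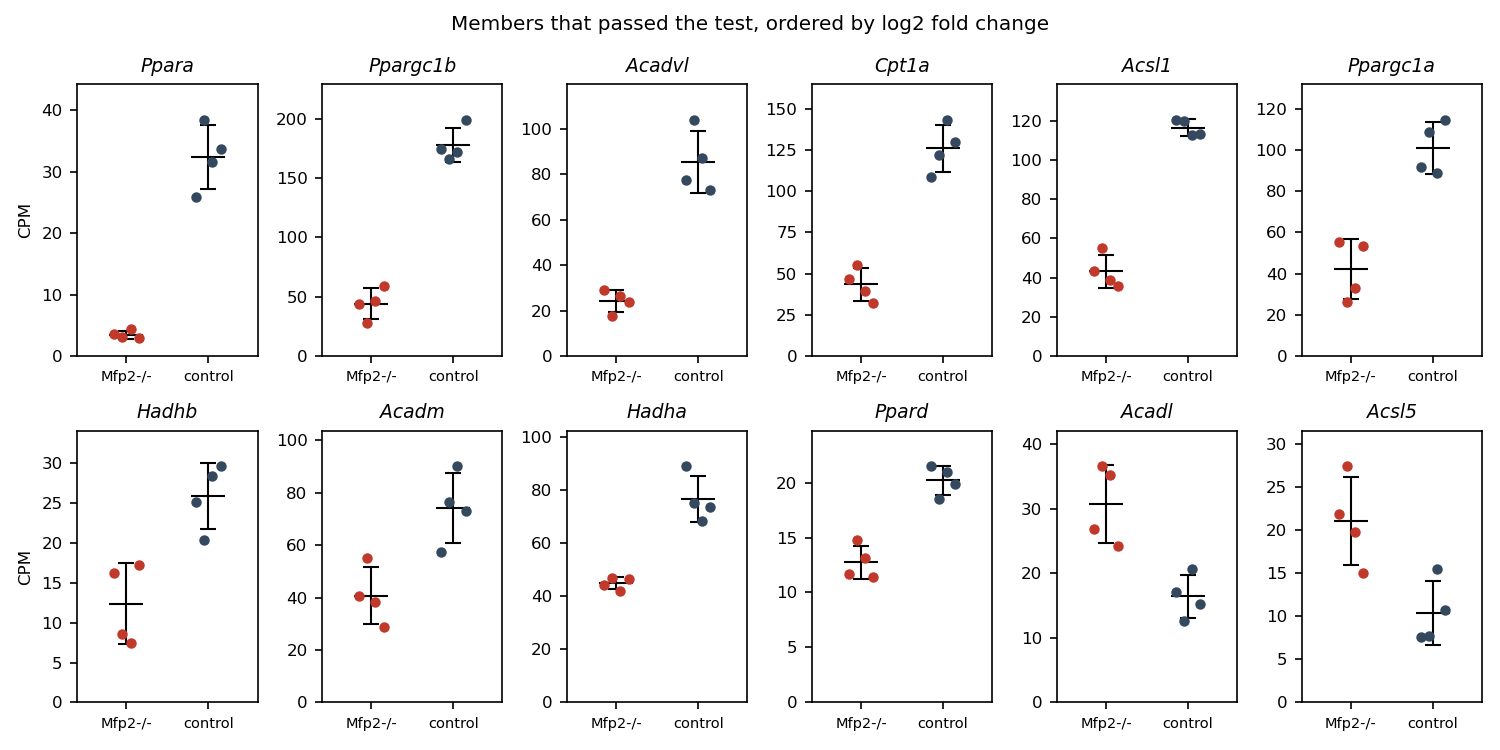
CPM (y axis, from 0 on a scale of its own in each panel) of the 12 genes that passed the test in the 4 Mfp2-/- libraries (red, left) and the 4 control libraries (blue, right). Horizontal lines are means and bars are SD. The groups are separate in each panel except that of Acsl5, where the lowest Mfp2-/- library (15.1) lies under the highest control (15.5).

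Of the 4 genes listed with the carnitine shuttle, the route of long chains into the mitochondrion, only Cpt1a passed the test. Cpt1a (chr19:3322334-3385733, plus strand) encodes the liver-type carnitine palmitoyltransferase of the outer membrane, the step inhibited by malonyl-CoA. It was at 46.7, 55.4, 39.7 and 31.99 CPM in Mfp2-/- retinas, against 109, 122, 143 and 129.6 CPM in control retinas. Each Mfp2-/- library was thus below each control, by 2.91-fold in the fit (log2 fold change -1.54, SE 0.18, adjusted p = 0.000109). Cpt1c, the brain isoform with little enzyme activity, averaged 26.3 ± 3.70 CPM in Mfp2-/- retinas and 18.2 ± 4.51 CPM in control retinas (SD, n = 4 each), with overlapping groups (log2 fold change 0.53, edgeR adjusted p = 0.0770). Cpt2, the inner membrane transferase, was at 11.3, 10.7, 14.5 and 6.99 CPM in Mfp2-/- retinas, against 12.7, 12.2, 13.2 and 13.6 CPM in control retinas (log2 fold change -0.25, SE 0.24, adjusted p = 0.458). Slc25a20, the carnitine-acylcarnitine carrier, ranged from 7.79 to 13.7 CPM in Mfp2-/- retinas and from 7.32 to 20.6 CPM in control retinas (log2 fold change -0.22, SE 0.33, adjusted p = 0.658). The 3 genes downstream of or beside Cpt1a therefore did not pass the test, though the error of Slc25a20 leaves room for changes in either direction.

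The relation of the outer to the inner transferase was also read within each library, where scaling plays no part. The log2 ratio of Cpt1a to Cpt2 counts (0.5 added to each) was 2.03, 2.35, 1.45 and 2.17 in Mfp2-/- retinas, against 3.08, 3.30, 3.42 and 3.24 in control retinas. The groups did not overlap and the mean difference was -1.26, with a two-sided exact permutation p of 0.0286, which is the smallest that 4 against 4 allow, and 0.114 after Benjamini-Hochberg adjustment over the 4 ratios computed. This ratio thus did not pass the adjusted threshold, which it could not have reached alone among 4 ratios.

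The 4 long-chain acyl-CoA synthetases went different ways. Acsl1 (chr8:46471037-46536051, plus strand), the main synthetase of oxidative tissues, was at 43.2, 54.9, 38.7 and 35.7 CPM in Mfp2-/- retinas, against 120.5, 119.9, 113 and 113 CPM in control retinas. Control values lay close together and the fit gave a 2.71-fold lower level (log2 fold change -1.44, SE 0.15, adjusted p = 5.16e-05). Acsl5 (chr19:55251938-55297720, plus strand), an isoform of mitochondria and endoplasmic reticulum studied mainly in intestine and liver, was at 21.9, 27.4, 19.8 and 15.1 CPM in Mfp2-/- retinas, against 7.64, 7.69, 15.5 and 10.8 CPM in control retinas (log2 fold change 0.99, SE 0.27, adjusted p = 0.0218). Mfp2-/- replicate 4 and control replicate 3 overlapped for Acsl5, and its call was lost without control replicate 1, 2 or 4 (adjusted p 0.0622, 0.0664 and 0.0504) and without Mfp2-/- replicates 2 and 3 together (0.0666). Acsl5 also shares 404 exon bases with Zdhhc6 on the opposite strand. Zdhhc6 had 74.2% as many counts and a log2 fold change of -0.69 (SE 0.29, edgeR adjusted p = 0.106), and whether the counting used strand is not given in the sources used here.

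Acsl3, tied to lipid droplet formation, and Acsl4, a related synthetase that prefers arachidonate, did not pass. Acsl3 was at 833, 597, 792 and 656 CPM in Mfp2-/- retinas, against 515, 503, 583 and 658 CPM in control retinas (log2 fold change 0.35, SE 0.15, adjusted p = 0.112), and Acsl4 averaged 32.6 ± 12.4 CPM in Mfp2-/- retinas and 29.1 ± 5.21 CPM in control retinas (edgeR adjusted p = 0.663). The log2 ratio of Acsl4 to Acsl3 counts differed by -0.25 (exact permutation p = 0.400, adjusted 0.457), less than the SD of 0.50 within the Mfp2-/- group, and by 0.17 without Mfp2-/- replicates 2 and 3. In Mfp2-/- retinas Acsl4 was lowest in replicates 2 and 3, at 17.8 and 27.2 CPM, against 44.9 and 40.4 CPM in replicates 1 and 4.

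Among the acyl-CoA dehydrogenases, which are named for the chain length they take, long-chain enzymes moved in opposite directions. Acadvl (chr11:70010183-70015411, minus strand) encodes the very long-chain enzyme of the inner membrane. It was at 29.0, 17.8, 26.2 and 23.9 CPM in Mfp2-/- retinas, against 77.5, 104, 87.1 and 73.2 CPM in control retinas, a 3.49-fold lower level (log2 fold change -1.80, SE 0.18, adjusted p = 3.66e-05). Acadl (chr1:66830839-66863277, minus strand), the long-chain enzyme of the matrix, was at 26.9, 36.6, 35.3 and 24.3 CPM in Mfp2-/- retinas, against 17.1, 12.7, 20.6 and 15.3 CPM in control retinas, a 1.85-fold higher level (log2 fold change 0.89, SE 0.20, adjusted p = 0.00899). Groups did not overlap for either gene, and Acadl was highest in Mfp2-/- replicates 2 and 3. Without these 2 libraries its log2 fold change was 0.62 and its adjusted p was 0.0548. Chosen after the values were seen and given without a test, the ratio of Acadl to Acadvl counts ran from 0.927 to 2.06 in Mfp2-/- retinas and from 0.122 to 0.237 in control retinas. Acadvl shares 1151 exon bases with Dvl2 on the opposite strand, which had 60.5% as many counts and a log2 fold change of -0.14 (SE 0.19, edgeR adjusted p = 0.621).

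Acadm (chr3:153922357-153944632, minus strand), the medium-chain enzyme, was at 40.7, 54.9, 38.3 and 28.7 CPM in Mfp2-/- retinas, against 57.5, 76.5, 90.0 and 73.2 CPM in control retinas. The highest Mfp2-/- library came close to the lowest control without crossing it (log2 fold change -0.88, SE 0.20, adjusted p = 0.00954). Acads, the short-chain enzyme, did not overlap between the groups either, at 6.37, 7.11, 7.40 and 6.62 CPM in Mfp2-/- retinas, against 4.37, 4.07, 4.84 and 3.14 CPM in control retinas, but rested on 9 to 22 counts a library and missed the threshold (log2 fold change 0.73, SE 0.26, adjusted p = 0.0561). Acadsb, which takes short branched chains from isoleucine, averaged 43.1 ± 7.95 CPM in Mfp2-/- retinas and 44.6 ± 7.23 CPM in control retinas (edgeR adjusted p = 0.880). Acad9, also an assembly factor of respiratory complex I, averaged 22.6 ± 2.64 CPM in Mfp2-/- retinas and 19.4 ± 1.57 CPM in control retinas (edgeR adjusted p = 0.329). The 6 dehydrogenases thus held 1 gene that rose, 2 that fell and 3 that did not pass.

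The trifunctional protein, which performs the last 3 steps on long chains, is built from the products of Hadha (chr5:30118304-30155162, minus strand) and Hadhb (chr5:30155248-30184593, plus strand). Hadha, the hydratase and dehydrogenase subunit, was at 44.2, 46.7, 42.0 and 46.3 CPM in Mfp2-/- retinas, against 88.8, 75.1, 68.4 and 73.5 CPM in control retinas (log2 fold change -0.77, SE 0.13, adjusted p = 0.00135). Hadhb, the thiolase subunit, was at 16.3, 8.64, 7.40 and 17.3 CPM in Mfp2-/- retinas, against 25.1, 20.4, 28.4 and 29.6 CPM in control retinas (log2 fold change -1.05, SE 0.28, adjusted p = 0.0169). Both fell without overlap, Hadha with little spread among Mfp2-/- mice and Hadhb with its lowest values in replicates 2 and 3. Without those 2 libraries Hadhb fell by 0.64 on the log2 scale (edgeR adjusted p = 0.0445). The log2 ratio of Hadha to Hadhb counts was 1.43, 2.40, 2.48 and 1.41 in Mfp2-/- retinas, against 1.81, 1.87, 1.26 and 1.31 in control retinas, a difference of 0.37 that was within the spread (exact permutation p = 0.286, adjusted 0.457). Without Mfp2-/- replicates 2 and 3 this difference was -0.14.

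Hadha and Hadhb are read in opposite directions from starts 86 bases apart in GENCODE and 273 bases apart in RefSeq, so a single stretch lies in the promoter windows of both genes. Whether this stretch bears on the levels of the 2 subunit genes was not tested. It is printed because they share it (chr5:30155003-30155230, GRCm38.p6, plus strand, the direction of Hadhb, with CpG pairs in capitals).
Hadha and Hadhb shared stretch: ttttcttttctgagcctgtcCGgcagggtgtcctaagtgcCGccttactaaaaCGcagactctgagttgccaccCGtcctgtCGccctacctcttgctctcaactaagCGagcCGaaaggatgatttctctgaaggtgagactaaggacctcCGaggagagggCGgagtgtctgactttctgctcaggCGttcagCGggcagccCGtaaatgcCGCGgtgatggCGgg
The 228 bases were 57.0% GC and held 15 CpG pairs. Acadsb is the other member with a tested gene starting within 1000 bases on the opposite strand. That neighbour, Ikzf5, fell (log2 fold change -0.77, SE 0.18, edgeR adjusted p = 0.0106), while Acadsb had a log2 fold change of -0.04 (SE 0.17), so the genes of that pair, unlike Hadha and Hadhb, were not both called.

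Hadh, Echs1 and Acaa2, matrix enzymes of the later steps, did not pass. Hadh, the short-chain hydroxyacyl-CoA dehydrogenase, was at 19.5, 38.6, 25.9 and 18.8 CPM in Mfp2-/- retinas, against 27.7, 21.3, 27.7 and 25.8 CPM in control retinas (log2 fold change -0.02, SE 0.23, adjusted p = 0.963). Echs1, the short-chain enoyl-CoA hydratase, was at 32.9, 32.01, 31.9 and 30.9 CPM in Mfp2-/- retinas, against 23.7, 19.5, 25.8 and 29.6 CPM in control retinas, without overlap but short of the threshold (log2 fold change 0.37, SE 0.16, adjusted p = 0.102). Acaa2, the matrix thiolase, averaged 16.6 ± 3.33 CPM in Mfp2-/- retinas and 13.03 ± 3.00 CPM in control retinas (edgeR adjusted p = 0.286). The auxiliary enzymes for unsaturated chains gave no call. Eci1, a double-bond isomerase, had a log2 fold change of -0.16 (SE 0.19, edgeR adjusted p = 0.553), Eci2, an isomerase found in mitochondria and peroxisomes, one of 0.34 (SE 0.26, adjusted p = 0.361), and the dienoyl-CoA reductase Decr1 one of 0.39 (SE 0.27, adjusted p = 0.297).

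The electron transfer flavoprotein, which collects electrons from these dehydrogenases, was measured through both subunits and its oxidoreductase. Etfa was at 13.8, 11.2, 16.8 and 13.2 CPM in Mfp2-/- retinas, against 10.2, 14.02, 14.2 and 20.9 CPM in control retinas (log2 fold change -0.10, SE 0.24, adjusted p = 0.790). Etfb was at 33.3, 48.3, 49.1 and 36.4 CPM in Mfp2-/- retinas, against 29.5, 43.4, 37.1 and 28.2 CPM in control retinas (log2 fold change 0.27, SE 0.19, adjusted p = 0.310). Groups overlapped for both, and the log2 ratio of Etfa to Etfb counts differed by -0.35, within its SD of 0.36 in Mfp2-/- and 0.55 in control retinas (exact permutation p = 0.457, adjusted 0.457). Etfdh, which passes the electrons to ubiquinone, averaged 9.17 ± 1.74 CPM in Mfp2-/- retinas and 9.76 ± 2.04 CPM in control retinas (edgeR adjusted p = 0.835).

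The 3 ketone body enzymes had log2 fold changes between -0.02 and 0.09. Bdh1, which oxidises β-hydroxybutyrate, was at 46.4, 71.6, 62.2 and 49.3 CPM in Mfp2-/- retinas, against 56.8, 53.8, 55.5 and 53.3 CPM in control retinas (log2 fold change 0.06, SE 0.15, adjusted p = 0.801). Oxct1, the transferase that commits acetoacetate to oxidation, was at 226, 197, 231 and 250.4 CPM in Mfp2-/- retinas, against 250.02, 195, 214 and 189 CPM in control retinas (log2 fold change 0.09, SE 0.14, adjusted p = 0.650). Acat1, the mitochondrial thiolase that splits acetoacetyl-CoA, was at 52.7, 65.0, 59.8 and 60.3 CPM in Mfp2-/- retinas, against 45.1, 52.0, 66.4 and 77.7 CPM in control retinas (log2 fold change -0.02, SE 0.18, adjusted p = 0.931). All 3 had overlapping groups. Their summed level was 325 to 360.0 CPM in Mfp2-/- retinas and 300.4 to 352 CPM in control retinas.

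**Figure D3:**
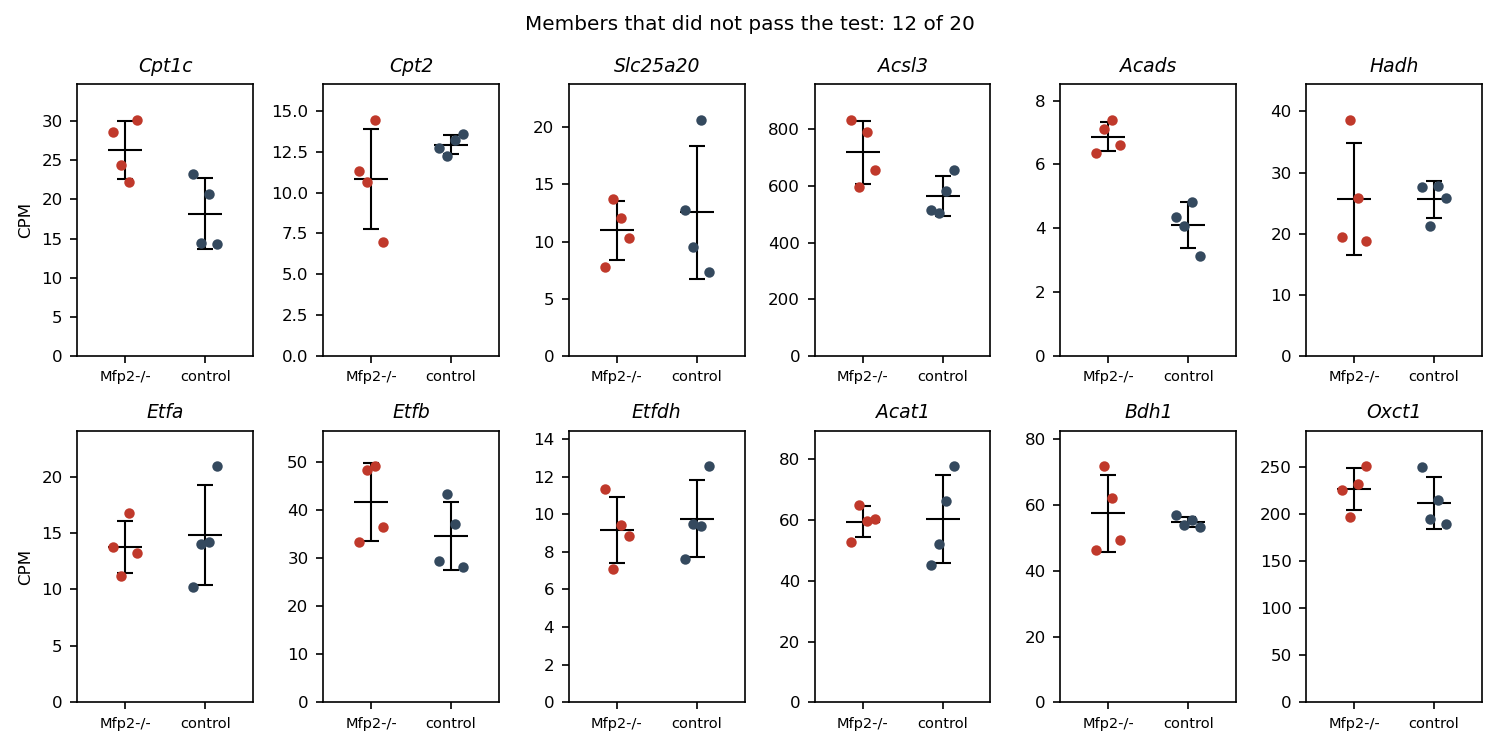
CPM (y axis, from 0 on a scale of its own in each panel) in the 4 Mfp2-/- libraries (red, left) and the 4 control libraries (blue, right) for 12 of the 20 members that did not pass the test. Lines are means and bars are SD. Groups overlap in each panel except that of Acads, where Mfp2-/- libraries lie between 6.37 and 7.40 CPM and controls between 3.14 and 4.84 CPM.

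The Mfp2+/- control mouse was compared with the Mfp2+/+ controls and the Mfp2-/- mice for each member. Its CPM fell within the range of the 3 Mfp2+/+ libraries for 17 of the 32 tested members and within the Mfp2-/- range for 10. For the 12 members that passed the test it was within the Mfp2-/- range for 0, and within the Mfp2+/+ range for 6. The Mfp2+/- mouse was itself among the controls of that test, so the count of 0 follows largely from the calls. These ranges do not test whether it resembled the Mfp2+/+ controls.

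Genes next to the members in the same pathway were read from lists chosen by function, also with earlier results of these data known. Of 8 other mitochondrial fatty acid oxidation genes tested, 3 rose and 0 fell, a share of 37.5% beside the 27.0% of all genes. Their median log2 fold change was 0.42. Acot2, a matrix thioesterase that frees long-chain fatty acids from coenzyme A, was at 25.8, 40.7, 32.3 and 41.2 CPM in Mfp2-/- retinas, against 6.55, 10.9, 12.9 and 14.3 CPM in control retinas (log2 fold change 1.63, SE 0.25, adjusted p = 0.000803). Hsd17b10, a short branched-chain hydroxyacyl-CoA dehydrogenase, rose by 0.89 on the log2 scale (edgeR adjusted p = 0.00395) and the thioesterase Acot9 by 0.81 (edgeR adjusted p = 0.0441). Of 6 further activation and binding genes 2 rose and 1 fell, a share of 50% beside the 27.0% of all genes. The acyl-CoA binding protein Dbi was higher (432 ± 70.4 CPM in Mfp2-/- retinas, 230.3 ± 27.3 CPM in control retinas, SD), as was Fabp3 (log2 fold change 0.53). The neuronal synthetase Acsl6 was lower (log2 fold change -0.68).

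Of 7 other ketone body genes tested, 0 rose and 2 fell (28.6%, near the 27.0% of all genes), both monocarboxylate carriers. Slc16a6, a carrier known from zebrafish to export ketone bodies from liver, was at 28.7, 17.8, 18.5 and 34.6 CPM in Mfp2-/- retinas, against 373, 347, 368 and 320.1 CPM in control retinas (log2 fold change -3.81, SE 0.22, adjusted p = 6.4e-07). Slc16a1, which moves lactate, pyruvate and ketone bodies, was at 80.3, 90.4, 84.0 and 47.4 CPM in Mfp2-/- retinas, against 185, 213, 281 and 206 CPM in control retinas (log2 fold change -1.55, SE 0.21, adjusted p = 0.000403). Other dehydrogenases that feed the flavoprotein numbered 6, of which 2 passed, a share of 33.3% beside the 27.0% of all genes. Sarcosine dehydrogenase Sardh rose (log2 fold change 2.55, SE 0.41, edgeR adjusted p = 0.00114). It rested on few counts, 19 to 25 a library in Mfp2-/- retinas and 1 to 8 in control retinas. Isovaleryl-CoA dehydrogenase Ivd fell (log2 fold change -0.92).

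PPAR target genes beyond the members were mostly too low to test, with 13 of 18 left untested. Of the 5 tested 3 rose and 0 fell, a share of 60% of few genes beside the 27.0% of all genes. The list leaves out the members, many of which are also transcribed under PPARs. Of the 28 enzymes and carriers among the members 2 rose and 6 fell. Plin2, the lipid droplet coat protein, was at 11.3, 22.4, 11.4 and 15.4 CPM in Mfp2-/- retinas, against 5.46, 4.52, 3.87 and 3.83 CPM in control retinas (log2 fold change 1.75, SE 0.29, adjusted p = 0.00154). The others were Acot2, given above, and Acot1 (log2 fold change 1.13, edgeR adjusted p = 0.0478), whose groups overlapped. Acot1 and Acot2 are near-identical neighbours, so reads could be split between them. Nuclear receptor partners and other mitochondrial regulators gave 0 genes that rose and 4 that fell of 19 tested, a share of 21.1% that lay under the 27.0% of all genes. Esrrb, an estrogen-related receptor, was at 17.3, 19.3, 15.1 and 16.5 CPM in Mfp2-/- retinas, against 251, 222, 256 and 283 CPM in control retinas (log2 fold change -3.89, SE 0.15, adjusted p = 1.03e-07). Rxra, the partner with which PPARs bind DNA, fell by 1.03 on the log2 scale (edgeR adjusted p = 0.000843), Nrf1, a factor for nuclear genes of mitochondria, by 1.00 (adjusted p = 0.00114) and Lpin1, a PGC-1α partner, by 0.71 (adjusted p = 0.00311).

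In 4 lists of neighbouring mitochondrial and peroxisomal functions the share called ran from 5.26% to 22.7%. Peroxisomal β-oxidation genes other than Hsd17b4 gave 2 that rose, among them the carnitine octanoyltransferase Crot (log2 fold change 0.96), and 0 that fell of 16 tested (12.5%). In the citric acid cycle and pyruvate dehydrogenase list 1 of 15 fell, a share of 6.67% (Dld, log2 fold change -0.76). Among 76 nuclear-encoded respiratory chain and ATP synthase subunits 4 fell and 0 rose, a share of 5.26% beside 27.0% of all genes, among them Ndufa10 (log2 fold change -0.82). Mitochondrial import and structure genes gave 2 that rose and 3 that fell of 22, a share of 22.7% that lay near the 27.0% of all genes. Medians of these 4 lists lay between -0.13 and -0.01.

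**Figure D4:**
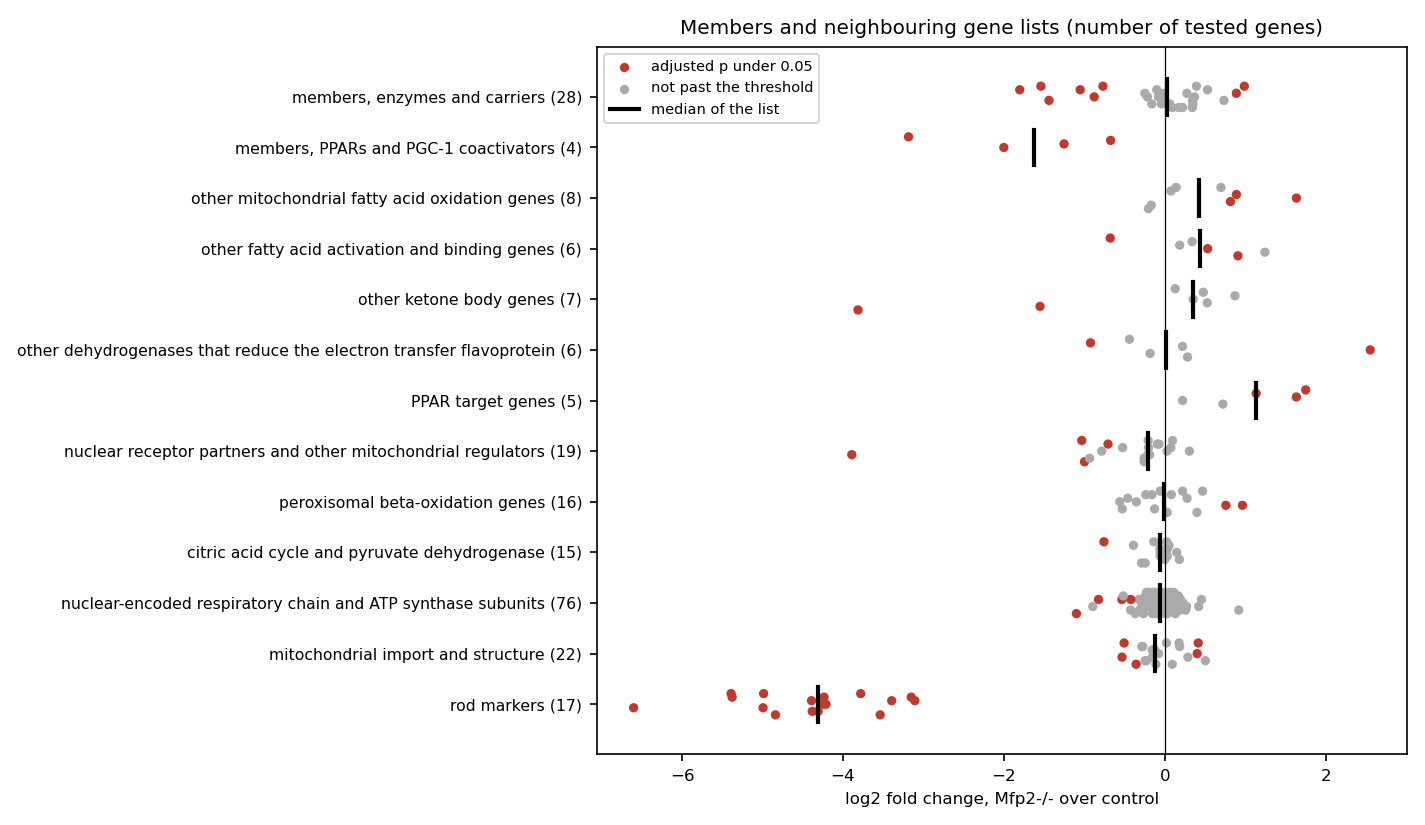
Log2 fold change of Mfp2-/- over control (x axis) for each tested gene of the members, of neighbouring pathway lists and of rod markers (rows, number of tested genes in brackets). Red points passed the test, grey points did not, and black bars are medians. The 28 enzymes and carriers have a median of 0.02, the 4 regulators of -1.63 and the rod markers of -4.31.

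Several sets of cell type markers differed between the groups, though not all. All 17 rod markers tested fell, with a median log2 fold change of -4.31 and a summed level of 1798 to 2477 CPM in Mfp2-/- retinas, against 36414 to 39930 CPM in control retinas, and 0 of the 17 were at 0 counts. Of 11 cone markers 2 rose and 7 fell, a share of 81.8% (1095 to 1203 CPM summed in Mfp2-/- retinas, 1748 to 1985 CPM in control retinas). Of 12 Müller glia markers 7 rose and 0 fell, a share of 58.3% (5263 to 6813 CPM in Mfp2-/- retinas, 4145 to 4716 CPM in control retinas). Each of the 7 reactive glia markers and 11 microglia and macrophage markers tested rose. The microglia and macrophage markers summed to 369.8 to 498 CPM in Mfp2-/- retinas, against 67.1 to 82.9 CPM in control retinas. Of 11 bipolar cell markers 8 rose and 1 fell (81.8%), and of 9 ganglion cell markers 5 rose and 0 fell (55.6%). Amacrine cell markers (2 of 9 rose, 22.2%) and endothelial and pericyte markers (1 of 7 rose, 14.3%) had shares under the 27.0% of all genes. Pigment epithelium RNA was present in both groups, with Rpe65 at 13.1 ± 2.91 CPM in Mfp2-/- retinas and 14.1 ± 4.08 CPM in control retinas (SD), and 1 of the 9 markers of that tissue tested passed (Slc6a20a, higher). In bulk retina fewer cells of a type and less RNA per cell cannot be told apart, and the part of these marker differences in the values of the 33 genes was not tested.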

How the data were processed

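Neural retina RNA of 4 Mfp2-/- and 4 control mice of 3 weeks was sequenced by QuantSeq. The authors deposited raw counts per gene symbol for each library, made per the labels with FastQC 0.11.7, HISAT2, SAMtools 1.5 and HTSeq 2.7.14 on mm10. Neither the annotation release nor the strand setting is given in the sources used here. Lines that name no gene (59.2% to 66.9% of Mfp2-/- and 60.6% to 65.4% of control counts) were left out. A table of the whole series was not used. Counts kept by filterByExpr were tested in edgeR 4.0.16 (R 4.3.3, TMM factors, quasi-likelihood fit, no covariate), with Benjamini-Hochberg adjustment over 12516 genes. The scripts were tested on simulated data. SE is the log2 fold change divided by the root of the test's F value. CPM scale each count to a common total of tested counts times the TMM factor. The study's limma became limma-voom (limma 3.58.1) among the alternatives, beside DESeq2 1.42.0, other scalings and filters, a replicate block and leaving out each library. Within-library log2 ratios (pseudocount 0.5) were tested by exact permutation over 8 libraries. Coordinates came from GENCODE on GRCm38, the assembly of mm10, and promoters from RefSeq on GRCm38.p6, matched by symbol. All members are named, and of each other list the called genes with the smallest adjusted p, up to 4 in each direction, some of which are not reported here. The members and lists were chosen with earlier results of these data known. Replicates are separate mice, and low counts limit precision: Ppara rested on 6 to 13 counts a library in Mfp2-/- retinas.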

Additional observations from a re-analysis of the deposited data

Results flagged for a closer look

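Of the 64 groups of 4 libraries examined (32 tested members in 2 groups), 1 held a library far from the others. Acaa2 was at 17.5 CPM in control replicate 1, against 10.9 to 11.9 CPM in the other 3 control libraries, and in Mfp2-/- retinas it ranged from 11.8 to 19.3 CPM. The gap took up 0.837 of the range of the group. Chance flags about 1 in 20 such groups.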

How the results depend on the processing

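The 10 members that fell were also called under every alternative that tested them (Ppara was not tested with at least 10 counts in every library). The number called upward was 6 by upper-quartile scaling and 6 by unscaled totals, and 1 to 3 when leaving out each library in turn, with 10 downward each time. Over all genes 2474 to 3524 were called on leaving out a library. Without Mfp2-/- replicates 2 and 3 both upward calls were lost (Acsl5 0.80, adjusted p = 0.0666; Acadl 0.62, adjusted p = 0.0548 in edgeR) and Cpt1c and Acsl4 were called upward. Replicate numbers did not pair the samples: same-numbered libraries correlated at -0.161 to 0.251 in their deviations and 3 of 8 libraries correlated best with their own number. Control replicate 3 correlated at 0.475 and 0.251 with Mfp2-/- replicates 2 and 3, and at -0.409 and -0.444 with Mfp2-/- replicates 1 and 4. The cause was not tested. The replicate block gave 1355 genes upward and 1490 downward, with 2 members upward and 10 downward. No ratio passed with a pseudocount of 1. With the replicate block 4 pairs allow no p under 0.125, and ratios with a library left out were computed as values without a test. These differences ran from 0.19 to 0.54 for Hadha to Hadhb, -0.47 to -0.080 for Etfa to Etfb, -1.38 to -1.08 for Cpt1a to Cpt2 and -0.42 to -0.076 for Acsl4 to Acsl3. Without Mfp2-/- replicates 2 and 3 together the sign turned for Hadha to Hadhb (-0.14, against 0.37 with all libraries) and for Acsl4 to Acsl3 (0.17, against -0.25).

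Among the members' own fold changes, signs changed only for genes that did not pass the test, and the cause was not tested. Log2 fold changes were 0.075 for Acadsb, 0.12 for Hadh, 0.022 for Etfa, 0.039 for Etfdh and 0.10 for Acat1 with upper-quartile factors, and 0.080, 0.11, 0.021, 0.040 and 0.098 in the same order with total counts alone. Others were 0.0029 for Hadh in DESeq2, and for Acat1 0.0072 in limma-trend and 0.00045 with the replicate block. Without Mfp2-/- replicates 2 and 3 they were 0.13 for Acadsb, 0.040 for Etfdh and -0.20 for Bdh1. Leaving out each library gave -0.40 to 0.15 for Slc25a20, -0.0034 to 0.36 for Acsl4, -0.11 to 0.070 for Acadsb, -0.26 to 0.13 for Hadh, -0.25 to 0.12 for Etfa, -0.19 to 0.074 for Etfdh, -0.15 to 0.13 for Acat1 and -0.060 to 0.18 for Bdh1.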
